A study of Saccharomyces cerevisiae with 10 samples.

Results

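Deletion strains of budding yeast were compared for the places where Swc4 was found on chromatin, using the deposited peak list of yaf9Δ cells and that of swr1Δ cells. All nuclear peaks of both lists were taken, 4522 in yaf9Δ and 1258 in swr1Δ, together 5780 of the 9305 nuclear peaks in the 4 lists of the series. A peak was called shared when it overlapped a peak of the other list by at least 1 bp. The comparison was made with the full lists and again with the 1258 yaf9Δ peaks of highest significance, so that both lists had the same length.

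The series used chromatin immunoprecipitation and sequencing (ChIP-seq), in which DNA bound by a protein is recovered with an antibody, here against the c-Myc epitope. The yaf9Δ cells (genotype yaf9d) and the swr1Δ cells (genotype swr1d) both carried SWC4-13MYC, the Swc4 gene with a Myc tag, as did the eaf1Δ and wild-type cells that serve below only as a further readout. Cultures of 50 ml in YPD, a rich medium, were taken in mid-log growth (OD600 of about 0.6) at 30 °C, with 2 repeats of each genotype. Each list pools both repeats, so no spread between repeats is known and no difference between genotypes was tested. The untagged wild-type samples were not analysed here, so a peak below means only that the authors' peak caller reported it.

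Swc4 is a subunit of both SWR1, the remodelling complex that exchanges histone H2A for the variant H2A.Z, and NuA4, a histone acetyltransferase. Yaf9 has a YEATS domain, a fold that binds acylated lysines on histone tails, and is likewise part of both complexes. Swr1 is the ATPase and scaffold of SWR1 and is not part of NuA4. H2A.Z is known to mark nucleosomes beside promoters and near silent chromatin, and NuA4 is known for its recruitment to ribosomal protein genes. Loss of Yaf9 thus removes a subunit from both complexes, whereas loss of Swr1 removes the core of SWR1 alone.

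The authors' fold, the ratio of the pileup of fragments at the summit to the local background, ranged over 1.12–13.3 in yaf9Δ (median 1.88) and 1.10–12.5 in swr1Δ (median 1.69). Folds rank peaks within a list and are set side by side below without a claim that Swc4 was more or less bound in either strain. Significance is the authors' −log10 q, and its smallest value was 1.31 in each list. Median peak width was 366 bp in yaf9Δ and 412 bp in swr1Δ, and the peaks covered 18.4% of the nuclear genome in yaf9Δ and 5.12% in swr1Δ. The read totals are not known from the sources used here. The lowest local background, solved from fold and p, was 59.6 fragments in yaf9Δ and 54.4 in swr1Δ. If the shortest peak (195 bp in yaf9Δ, 252 bp in swr1Δ) stands for the fragment length, background fragments per base were 1.42 times as many in yaf9Δ, and the yaf9Δ list was 3.59 times as long. The part of this difference in the longer list was not tested.

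Almost every swr1Δ peak overlapped a peak of the longer yaf9Δ list, and most yaf9Δ peaks overlapped no swr1Δ peak. Of the 4522 yaf9Δ peaks, 1202 overlapped a swr1Δ peak (26.6%, exact Clopper-Pearson 95% interval 25.3–27.9, counting error only) and 3320 did not. Of the 1258 swr1Δ peaks, 1238 overlapped a yaf9Δ peak (98.4%, 97.6–99.0) and 20 did not. The 16 chromosomes were alike in this. The share of yaf9Δ peaks with a swr1Δ peak lay between 23.1% on chromosome VIII and 31.1% on chromosome XI, and each chromosome held 2.92 to 4.10 yaf9Δ peaks for each swr1Δ peak.

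Taken at equal length, the lists shared about as many peaks as they did not. Of the 1258 most significant yaf9Δ peaks, 652 overlapped a swr1Δ peak (51.8%, interval 49.0–54.6), and of the 1258 swr1Δ peaks 681 overlapped one of these (54.1%, 51.3–56.9). Of the 577 swr1Δ peaks without a match at equal length, 557 overlapped a yaf9Δ peak that ranked below the limit. That limit fell between 2 gene-body peaks with almost the same significance. The last inside lay in BRE5, which encodes a cofactor of a ubiquitin protease (chromosome XIV, 717169–717778, −log10 q 18.88, fold 2.04). The first outside lay in PRP40, a splicing factor gene (chromosome XI, 419875–420115, −log10 q 18.86, fold 2.32).

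**Figure D1:**
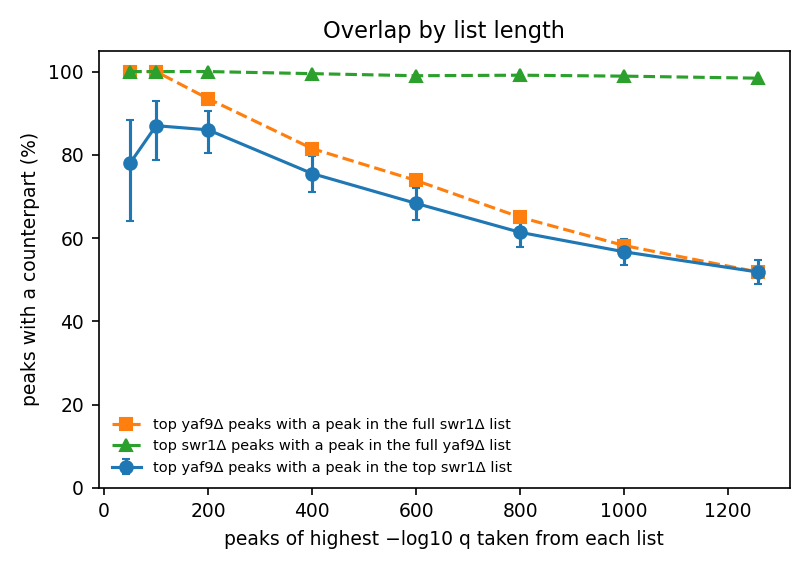
Share of peaks with a counterpart (vertical axis, %) when the peaks of highest −log10 q are taken from each list (horizontal axis, number of peaks). Bars on the solid line are exact 95% intervals. The solid line stands at 78% at 50 peaks, 87.0% at 100 and 51.8% at 1258, while top swr1Δ peaks have a peak in the full yaf9Δ list in at least 98.4% of cases at each length.

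Overlap between the top of one list and the top of the other was highest for the first 100 and 200 peaks. Among the first 50 peaks of each list, 39 of the yaf9Δ peaks overlapped 39 of the swr1Δ peaks (78%, interval 64.0–88.5). Among the first 100 peaks of each list, 87 of the yaf9Δ peaks overlapped 87 of the swr1Δ peaks, and all 100 of either list had a counterpart in the other full list. Among the first 200 it was 172 (86.0%), and 187 of the first 200 yaf9Δ peaks had a counterpart in the full swr1Δ list. By 600 peaks the yaf9Δ share was 68.3%, and by 1000 it was 56.7%. Among the first 50 peaks, ribosomal protein promoters held 30 in yaf9Δ and 20 in swr1Δ, the outermost 10 kb of chromosomes held 4 in yaf9Δ and 7 in swr1Δ, and gene bodies held 2 in each. Among the first 200, gene bodies held 27 yaf9Δ peaks and 8 swr1Δ peaks.

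**Figure D2:**
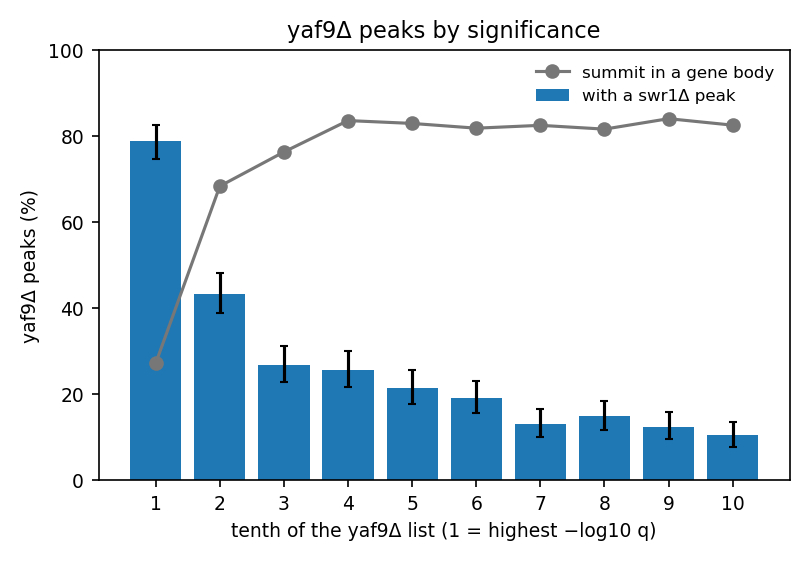
yaf9Δ peaks in 10 equal bins by −log10 q (horizontal axis, 1 is the most significant), with the share that overlapped a swr1Δ peak (bars, exact 95% intervals) and the share whose summit lay in a gene body (grey line). The shared part is 78.8% in the first bin and 10.4% in the last, and gene bodies take 27.2% of the first bin and 68.4% or more of each later bin.

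Within the yaf9Δ list the shared part was highest at its top. The list was divided by −log10 q into 10 bins of 452 or 453 peaks. In the most significant bin 357 of 453 peaks were shared (78.8%, interval 74.8–82.5). In the next bin it was 43.4%, in bin 5 21.5% and in the last 10.4%. Gene bodies held 27.2% of the summits in the first bin, 68.4% in the next and between 76.3% and 84.1% in the others. Shared yaf9Δ peaks had a median width of 550.5 bp, a median fold of 2.08 and a median −log10 q of 21.4. The 3320 yaf9Δ-only peaks had a median width of 308 bp, a median fold of 1.84 and a median −log10 q of 10.7. The medians are thus lower in the yaf9Δ-only peaks, yet 962 of them (29.0%) had a fold of at least 2, as did 673 of the shared peaks (56.0%).

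**Figure D3:**
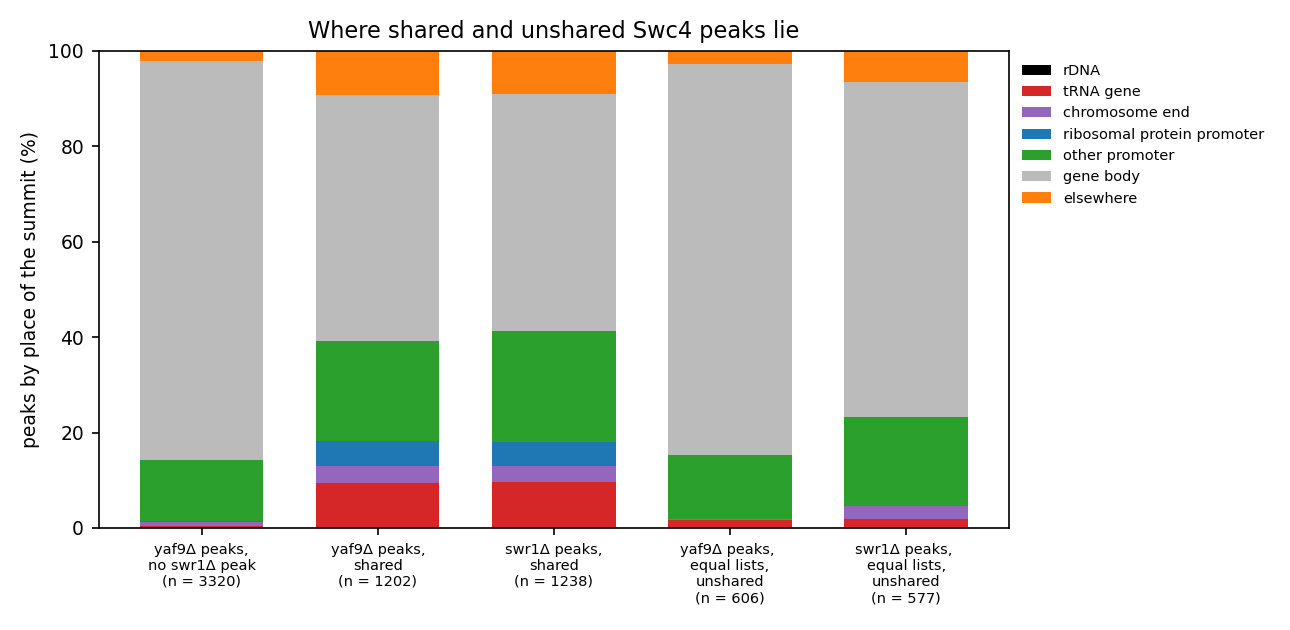
Place of the summit for yaf9Δ peaks without and with a swr1Δ peak, for shared swr1Δ peaks, and for the peaks unshared at equal list length (bars, % of the peaks in each set, stacked by class). Gene bodies make up 83.6% of the yaf9Δ-only peaks and 51.5% of the shared yaf9Δ peaks, and ribosomal protein promoters and tRNA genes are found almost entirely among shared peaks.

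Shared peaks and yaf9Δ-only peaks lay at different places in the genome. The position of the summit gave each peak its class. Summits in the rDNA were set aside first, then those within 100 bp of a tRNA gene, in the outermost 10 kb of a chromosome, in the 500 bp upstream of a ribosomal protein gene, in the same stretch of another gene, and in a gene body, with the rest called elsewhere. Of the 1202 shared yaf9Δ peaks, 619 lay in gene bodies (51.5%), 251 at other promoters (20.9%), 111 at tRNA genes (9.23%), 65 at ribosomal protein promoters (5.41%), 42 at chromosome ends (3.49%), 112 elsewhere and 2 in the rDNA. Of the 3320 yaf9Δ-only peaks, 2777 lay in gene bodies (83.6%, interval 82.3–84.9), 430 at other promoters (13.0%), 68 elsewhere, 30 at chromosome ends, 13 at tRNA genes, 1 at a ribosomal protein promoter and 1 in the rDNA. Classes aside, 3101 of the yaf9Δ-only peaks (93.4%) and 722 of the shared yaf9Δ peaks (60.1%) had their summit inside a protein-coding gene. A summit inside a gene is classed as promoter when it lies in the 500 bp upstream of another gene.

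The share of yaf9Δ peaks with a swr1Δ counterpart differed widely between classes. It was 65 of 66 at ribosomal protein promoters (98.5%, interval 91.8–100), 111 of 124 at tRNA genes (89.5%, 82.7–94.3), 42 of 72 at chromosome ends (58.3%, 46.1–69.8), 251 of 681 at other promoters (36.9%, 33.2–40.6) and 619 of 3396 in gene bodies (18.2%, 16.9–19.6). At equal length the order was the same, with 64 of 64, 106 of 115 (92.2%), 27 of 29 (93.1%), 168 of 249 (67.5%) and 208 of 704 (29.5%), except that chromosome ends then stood level with tRNA genes. Gene bodies therefore made up most of what either list did not share at equal length, with 496 of 606 unshared yaf9Δ peaks (81.8%) and 405 of 577 unshared swr1Δ peaks (70.2%). Other promoters followed with 81 of the yaf9Δ peaks (13.4%) and 107 of the swr1Δ peaks (18.5%).

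The other strains offered a readout that the choice of peaks did not use. Of the shared yaf9Δ peaks, 421 overlapped a wild-type peak (35.0%, interval 32.3–37.8) and 1000 an eaf1Δ peak (83.2%, 81.0–85.3). Of the yaf9Δ-only peaks, 271 overlapped a wild-type peak (8.16%, 7.25–9.15) and 1730 an eaf1Δ peak (52.1%, 50.4–53.8). Neither of these lists held a counterpart for 112 of the shared peaks (9.32%) and 1484 of the yaf9Δ-only peaks (44.7%). In gene bodies the eaf1Δ list held a counterpart for 525 of 619 shared yaf9Δ peaks (84.8%) and 1368 of 2777 yaf9Δ-only peaks (49.3%). At ribosomal protein promoters 63 of the 65 shared yaf9Δ peaks overlapped a wild-type peak and 27 an eaf1Δ peak. The 4 lists were made with the same antibody and peak caller, and the sources used here do not say whether they shared a control.

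At equal length the wild-type list overlapped 332 of the 652 shared yaf9Δ peaks (50.9%) and 17.3% of the 606 unshared ones, and it overlapped 333 of the 681 shared swr1Δ peaks (48.9%) and 82 of the 577 unshared ones (14.2%). The eaf1Δ list overlapped 523 of the shared yaf9Δ peaks (80.2%) and 280 of the unshared ones (46.2%). In swr1Δ the order was the other way round, with an eaf1Δ peak at 542 of the shared peaks (79.6%) and 491 of the unshared ones (85.1%).

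Where both strains had a peak, the places ranked alike. Overlapping peaks were joined into 1193 pairs, each peak used once. Over these pairs Spearman's rank correlation of the fold was 0.849 and Pearson's r of log2 fold 0.928, and over the 650 pairs at equal length the rank correlation was 0.925 and r 0.924. These values describe sites on 1 genome in 2 pooled lists and carry no p. Local background was solved for each list apart, with a median over the 1193 pairs of 89.1 fragments in yaf9Δ and 107 in swr1Δ. Whether the backgrounds follow each other from site to site was not tested. With a wild-type peak at the site the rank correlation was 0.934 (405 pairs), and without it 0.763 (788 pairs). The summits of a pair lay a median of 17 bp apart, and 887 pairs (74.4%) had them within 50 bp. Both summits had the same class in 1095 pairs (91.8%).

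**Figure D4:**
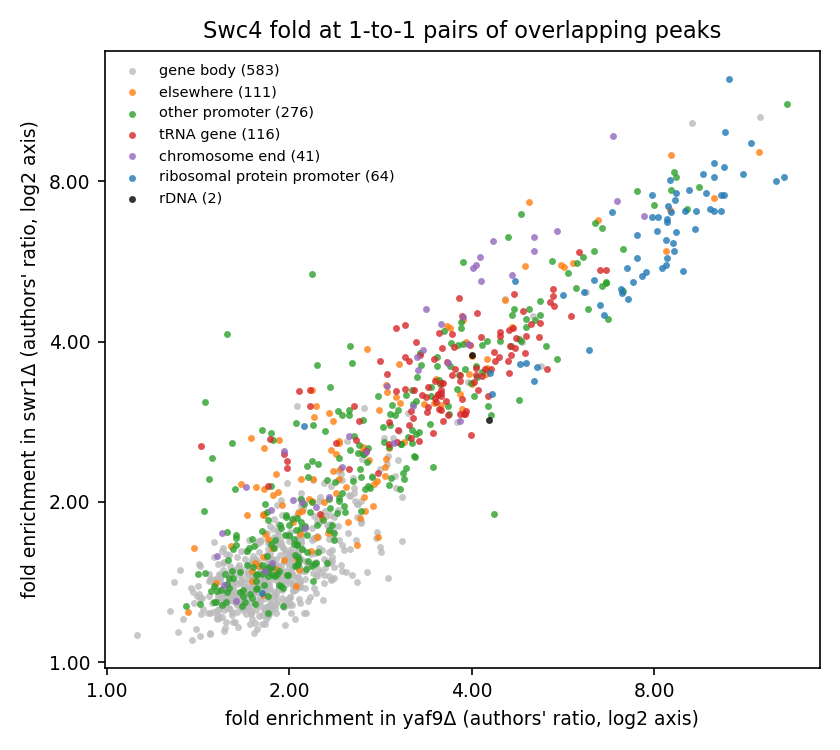
Fold of each of the 1193 pairs in yaf9Δ (horizontal) and in swr1Δ (vertical), on log2 axes, coloured by the class of the swr1Δ summit with the number of pairs. Pairs at ribosomal protein promoters lie at the upper right, tRNA genes in the middle and gene bodies at the lower left, where the order of the 2 lists agrees least (rank correlation of 0.616).

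Agreement depended on the class of the site. The rank correlation was 0.963 at chromosome ends (41 pairs), 0.900 at ribosomal protein promoters (64), 0.859 at other promoters (276), 0.827 elsewhere (111), 0.723 at tRNA genes (116) and 0.616 in gene bodies (583). The range of folds bears on a rank correlation, and its part was not tested. In yaf9Δ the range was 1.43–6.66 at tRNA genes, 1.52–7.70 at chromosome ends and 1.12–12.0 in gene bodies. In swr1Δ it was 1.90–5.89 at tRNA genes, 1.30–9.74 at chromosome ends and 1.10–10.6 in gene bodies. All 64 pairs at ribosomal protein promoters had summits within 50 bp, against 386 of 583 in gene bodies (66.2%). In both lists ribosomal protein promoters stood at the top and gene bodies at the bottom of the order. Their median rank among the 1193 pairs (1 is the highest fold) was 44.5 in yaf9Δ and 55.5 in swr1Δ for ribosomal protein promoters, and 795 in yaf9Δ and 856 in swr1Δ for gene bodies. For tRNA genes it was 235.5 in yaf9Δ and 237.5 in swr1Δ. Chromosome ends had a median rank of 278 in yaf9Δ and 246 in swr1Δ, and at equal length 202 in yaf9Δ and 130 in swr1Δ among 650 pairs, a higher place in the swr1Δ order that was not tested.

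The shared sites of highest rank were mostly promoters of ribosomal protein genes. First was a site on chromosome XV (yaf9Δ 795778–797367, swr1Δ 796692–797340) upstream of ENV9 and of SRL1, which encodes a cell wall mannoprotein, with a fold of 13.3 in yaf9Δ and 11.2 in swr1Δ. Next came RPS23A, a small-subunit protein gene (chromosome VII, yaf9Δ 726476–727004, swr1Δ 726487–726971), with a fold of 10.6 in yaf9Δ and 12.5 in swr1Δ. The site at YDR010C and upstream of SNQ2, which encodes a multidrug transporter (chromosome IV, yaf9Δ 464694–465602, swr1Δ 464710–465583), had 12.0 in yaf9Δ and 10.6 in swr1Δ. All 3 had a wild-type and an eaf1Δ peak, and their summits in the 2 strains lay 2 to 8 bp apart.

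RPS11B had a fold of 10.5 in yaf9Δ and 9.88 in swr1Δ. The site upstream of RPL42B and of CHS7, needed for export of a chitin synthase, had 11.6 in yaf9Δ and 9.43 in swr1Δ. At GPC1, a gene of phospholipid metabolism whose peak also overlaps the promoter of RPL24B, the folds were 11.9 in yaf9Δ and 9.09 in swr1Δ. These 3 sites ranked within the first 9 pairs of both orders. The site upstream of ROX1, a repressor of hypoxic genes (chromosome XVI, yaf9Δ 678481–679408, swr1Δ 678510–679411), ranked 24 in yaf9Δ (fold 9.24) and 4 in swr1Δ (10.3). RPL41B (10.4 in yaf9Δ, 8.50 in swr1Δ), RPS0B (10.1 in yaf9Δ, 8.67 in swr1Δ) and RPS21B (11.2 in yaf9Δ, 8.26 in swr1Δ) completed the first 10.

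Most genes for proteins of the cytoplasmic ribosome had a Swc4 peak over part of their promoter in both lists. Here a promoter counted as having a peak when any part of a peak lay in its 500 bp. The summit could lie elsewhere. By summit, the ribosomal protein promoter class held 65 shared yaf9Δ peaks and 64 shared swr1Δ peaks. Of 138 promoters 88 had a peak in both lists (63.8%, against 17.4% of all 6002 protein-coding promoters), 12 in yaf9Δ only (8.70%, against 23.1%), 0 in swr1Δ only (against 0.3%) and 38 in neither. At equal list length it was 85 in both (against 12.3%), 9 in yaf9Δ only (against 5.73%) and 3 in swr1Δ only (against 5.4%). In all, a yaf9Δ peak lay at 100 of the 138 promoters (against 40.5%) and a swr1Δ peak at 88 (against 17.7%), and at equal length a yaf9Δ peak at 94 (against 18%). The count in both lists stood far above the background share. The 88 promoters rested on fewer peaks, since divergent genes such as RPL13B and RPS16A shared 1 peak (13.1 in yaf9Δ, 8.15 in swr1Δ), and all 138 drew on 95 distinct peaks in yaf9Δ and 83 in swr1Δ.

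At the 88 promoters with a peak in both lists the fold ranged over 1.63–13.1 in yaf9Δ (median 8.02) and 1.28–12.5 in swr1Δ (median 5.75). A wild-type peak overlapped 81 of these 88 promoters and an eaf1Δ peak 29. The 7 without a wild-type peak, picked out after their values were seen, were RPS29A, RPS18B, RPS3, RPL12B, RPL38, RPS9A and RPL15B. Their folds ran from 1.63 to 4.92 in yaf9Δ and from 1.28 to 4.26 in swr1Δ, in the lower part of the range. The lower end was held by RPL15B (1.63 in yaf9Δ, 1.74 in swr1Δ), RPS9A (1.64 in yaf9Δ, 1.28 in swr1Δ) and RPL29 (1.81 in yaf9Δ, 1.35 in swr1Δ).

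The 12 ribosomal protein promoters with a yaf9Δ peak only were RPS28B (fold 3.18), RPS28A (2.92), RPL4B (2.42), RPS29B (2.30), RPL8B (2.22), RPL14B, RPS30A, RPL22A, RPP2B, RPL4A, RPL1A and ASC1 (1.60), which encodes a ribosome-bound signalling protein. All lay below the median of the 88. Of all yaf9Δ-only peaks, 1 had its summit in a ribosomal protein promoter, that of RPS30A (fold 2.19). At the others the peak reached the promoter from a summit elsewhere, as at RPS28B, where it lay in the gene itself. A gene counted here can still have a swr1Δ peak in its body. RPL4B had a gene-body summit in both lists (2.42 in yaf9Δ, 1.69 in swr1Δ), and RPL4A had one in swr1Δ (1.59). Both subunits followed the same course, with 49 of 81 large-subunit promoters and 39 of 57 small-subunit promoters in both lists, and 7 large-subunit and 5 small-subunit promoters in yaf9Δ only. Many of these genes have a near-identical paralog, and the sources used here do not say how reads with several matches were placed, so values of single copies are uncertain.

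Inside the ribosomal protein genes the lists parted. A gene body counted as having a peak when a summit of the gene-body class lay in it, so summits in the 500 bp before any gene were left out. Of the 138 genes 23 had such a summit in both lists (16.7%, against 9.15% of all 6002 gene bodies), 73 in yaf9Δ only (52.9%, against 34.1%), 2 in swr1Δ only (against 0.883%) and 40 in neither. At equal length it was 22 in both (15.9%, against 3.65%), 60 in yaf9Δ only (43.5%, against 7.01%) and 3 in swr1Δ only (2.17%, against 6.38%). With the full lists 96 of the 138 bodies held a yaf9Δ summit (against 43.3%) and 25 a swr1Δ summit (against 10%), and at equal length 82 held a yaf9Δ summit (against 10.7%). Their folds were modest beside those at the promoters, with a median of 2.08 in yaf9Δ and 1.32 in swr1Δ at equal length.

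Examples in both lists were RPS17B (2.78 in yaf9Δ, 1.71 in swr1Δ), RPS9A (2.63 in yaf9Δ, 1.84 in swr1Δ) and RPP2A, which encodes a protein of the ribosomal stalk (2.52 in yaf9Δ, 1.64 in swr1Δ). The peaks of RPS17B and RPP2A were also those counted at the promoters of these genes, so promoter and gene-body counts rest in part on the same peaks. Those in yaf9Δ only were led by RPS28B (3.18), RPL14A (2.84), RPL14B (2.62) and RPS21A (2.59). RPL4A (1.59) and RPL18B (1.36) had a summit of this class in swr1Δ only. Bodies with a summit in both lists do not always hold overlapping peaks, since the count was made by gene.

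tRNA genes, transcribed by RNA polymerase III, had peaks in much the same copies in both lists. Of 275 nuclear tRNA genes 135 had a peak within 100 bp in both lists (49.1%, interval 43.0–55.2), 16 in yaf9Δ only (5.82%), 5 in swr1Δ only (1.82%) and 119 in neither. These percentages are over all tRNA genes. Of all protein-coding promoters, 17.4% had a peak in both lists, 23.1% in yaf9Δ only and 0.3% in swr1Δ only. At equal length 127 (46.2%) had a peak in both, 11 (4%) in yaf9Δ only and 13 (4.73%) in swr1Δ only, so that 138 genes (50.2%) had a yaf9Δ peak and 140 (50.9%) a swr1Δ peak, where the full lists gave 151 (54.9%) with a yaf9Δ peak. At the 135 genes in both, the fold ranged over 1.43–7.98 in yaf9Δ (median 3.59) and 1.20–5.89 in swr1Δ (median 3.35), with a rank correlation of 0.747. The highest yaf9Δ value belongs to YNCE0005W, which lies under a wide yaf9Δ peak with its summit at HYP2 (7.98 in yaf9Δ, 1.78 in swr1Δ). Neighbouring genes can share a peak, as YNCD0011W and YNCD0012W did (6.66 in yaf9Δ, 5.45 in swr1Δ).

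SUF8, a suppressor tRNA gene on chromosome VIII, had a fold of 6.01 in yaf9Δ (388752–389148) and 5.89 in swr1Δ (388771–389128). IMT1, an initiator methionine tRNA gene on chromosome XV, had 5.44 in yaf9Δ (710025–710388) and 4.87 in swr1Δ (710035–710377). Both had an eaf1Δ peak and no wild-type peak. Of the 135 tRNA genes in both lists, 107 had an eaf1Δ peak and 60 a wild-type peak. Of the 16 in yaf9Δ only, 2 had an eaf1Δ peak and 2 a wild-type peak, and of the 5 in swr1Δ only, 0 had either.

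The 5 tRNA genes with a swr1Δ peak only were YNCD0006W (chromosome IV, 437682–437947, fold 3.13), YNCP0017C (chromosome XVI, 769142–769393, fold 3.11), YNCK0021W (chromosome XI, 578835–579115, fold 2.49), YNCA0006C (2.31) and YNCL0009C (2.05). Those in yaf9Δ only were led by YNCD0013C (chromosome IV, 619888–620138, fold 2.85), YNCL0001W (chromosome XII, 92475–92740, fold 2.77) and YNCE0004C (chromosome V, 61755–62044, fold 2.73), whose peak also lies at SNR53. Several tRNA genes have identical copies, so which copy carried the fragments is uncertain for either set.

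Further transcripts of this polymerase were found in both lists. SCR1 encodes the RNA component of the signal recognition particle, and its fold was 5.53 in yaf9Δ and 3.70 in swr1Δ. RPR1 encodes the RNA component of RNase P, and its fold was 4.22 in yaf9Δ and 3.48 in swr1Δ. SNR52, a snoRNA gene with the same polymerase, had 3.04 in yaf9Δ and 3.63 in swr1Δ. RNA170 had a yaf9Δ peak only (1.46), and SNR6, the U6 snRNA gene, had a peak in neither.

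The snRNA and snoRNA genes, mostly transcribed by RNA polymerase II, had peaks mainly in yaf9Δ. Of 82 such genes 6 had a peak within 100 bp in both lists (7.32%), 20 in yaf9Δ only (24.4%) and 1 in swr1Δ only (1.22%). At equal length 6 were in both (7.32%), 19 in yaf9Δ only (23.2%) and 1 in swr1Δ only (1.22%). A yaf9Δ peak lay at 26 of these genes (31.7%) and a swr1Δ peak at 7 (8.54%) with the full lists, and at equal length it was 25 in yaf9Δ (30.5%) and 7 in swr1Δ (8.54%). Percentages here are over all 82 genes. With the full lists the yaf9Δ-only share was near the 23.1% of all promoters and below the 34.1% of gene bodies. At equal length it stood above the 5.73% of promoters and the 7.01% of gene bodies. These features differ in length from the snRNA and snoRNA stretches. In both lists were SNR189 (4.80 in yaf9Δ, 3.63 in swr1Δ), SNR48 (3.47 in yaf9Δ, 3.07 in swr1Δ), SNR60 (3.08 in yaf9Δ, 2.26 in swr1Δ), SNR52, SNR58 and SNR43. The peak at SNR189 was also the one counted at the promoter of RPS14A. Likewise the yaf9Δ peak at SNR24 was the one at ASC1, and that at SNR33 the one at the tRNA gene SUF16. These counts thus rest in part on the same peaks.

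The yaf9Δ-only snRNA and snoRNA genes included SNR10 (fold 2.83, −log10 q 101), SNR53 (2.73), SNR8 (2.53, −log10 q 155), SNR64 (2.51) and SNR45 (2.27). The peak at SNR8 (chromosome XV, 832341–832590) was the most significant of all 3320 yaf9Δ-only peaks. Spliceosomal snRNA genes were among them, with SNR19, the U1 gene (2.09), LSR1, the U2 gene (1.76), and SNR7-L and SNR7-S, 2 forms of the U5 gene under 1 peak (2.30). SNR18 was the gene with a swr1Δ peak only (1.19).

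In the rDNA the main peak ranked first by significance in both lists. It lay at 459496–460833 of chromosome XII in yaf9Δ (fold 4.28, −log10 q 4733, summit 460206) and at 459589–460773 in swr1Δ (fold 2.85, −log10 q 1804, summit 460554). The summits stood apart within the shared stretch, unlike those beside a 5S gene copy outside the main array, where both lay at 489466 (fold 4.01 in yaf9Δ, 3.78 in swr1Δ). A further rDNA peak was found in yaf9Δ only (468723–469007, fold 3.22). Reads from the many rDNA copies fall on few positions of a reference, so neither fold nor place can be given to a single repeat.

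Nearly every chromosome arm had a peak at its end in both lists. A peak lay in the outermost 10 kb of 29 of 32 arms in both lists, of 2 in yaf9Δ only (the right arm of II, highest fold 1.86, and the left arm of X, 2.51), of 0 in swr1Δ only and of 1 in neither (the left arm of XVI). The chromosome-end class held 72 of the 4522 yaf9Δ peaks and 42 of the 1258 swr1Δ peaks. How many other stretches of 10 kb hold a peak was not counted, so the arm count is not shown to be particular to ends. The highest fold on an arm reached 7.70 in yaf9Δ and 6.87 in swr1Δ on the left arm of XII. On the left arm of XIII it was 6.85 in yaf9Δ and 9.74 in swr1Δ, the highest value of any arm in swr1Δ. At the right end of VIII, beside YHR219W, the peak ranked second by significance in both lists (yaf9Δ 562216–562632, fold 6.95; swr1Δ 562224–562634, fold 7.36). Among the 10 most significant peaks, 3 of the yaf9Δ list and 4 of the swr1Δ list had their summit within 10 kb of an end. Families of repeated genes lie there, so reads may come from another copy.

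Other gene groups had promoter peaks in both lists in smaller shares. The background is 17.4% of all promoters for both, 23.1% for yaf9Δ only and 0.3% for swr1Δ only. Cyclins, which drive the cell cycle kinase, had a peak in both lists at 6 of 12 promoters and in yaf9Δ only at 2. The G1 cyclins CLN2 (8.50 in yaf9Δ, 7.07 in swr1Δ), PCL1 (6.12 in yaf9Δ, 5.77 in swr1Δ) and CLN1 (4.24 in yaf9Δ, 3.57 in swr1Δ) led them, and CLN3 (2.16) and PCL2 (1.98) were in yaf9Δ only. Histone genes had 5 of 10 in both and 3 in yaf9Δ only, on 5 distinct yaf9Δ and 3 distinct swr1Δ peaks. The divergent HTA1 and HTB1 shared 1 (2.16 in yaf9Δ, 1.92 in swr1Δ), while HTA2 and HTB2 shared a yaf9Δ peak only (2.44).

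Stress response genes had a peak in both at 15 of 34 promoters and in yaf9Δ only at 14. Among the first were YAP1, an oxidative stress factor (5.10 in yaf9Δ, 4.38 in swr1Δ), UBI4, polyubiquitin (4.16 in yaf9Δ, 3.51 in swr1Δ), and DDR2 (3.87 in yaf9Δ, 3.96 in swr1Δ). GPP1, a glycerol phosphatase (3.09), and DDR48 (2.26) led those in yaf9Δ only. Cell wall and plasma membrane genes had 10 of 24 in both, led by CWP2 (6.36 in yaf9Δ, 5.93 in swr1Δ), and 9 in yaf9Δ only, led by SPI1 (2.82) and PST1 (2.71). Chaperone genes had 8 of 28 in both, led by BTN2 (8.69 in yaf9Δ, 8.14 in swr1Δ) and HSP42 (6.57 in yaf9Δ, 6.52 in swr1Δ), and 7 in yaf9Δ only.

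Proteasome genes had 9 of 35 in both, 6 in yaf9Δ only and 1 in swr1Δ only. RPN4, the factor that activates this group, had 4.83 in yaf9Δ and 6.96 in swr1Δ, and PRE2 had 8.40 in yaf9Δ and 6.79 in swr1Δ. The peak at PRE2 was also the one counted at the ribosomal protein gene RPL11A. The promoter of RPT2 was the swr1Δ-only member, under the peak at the tRNA gene YNCD0006W. The phosphate regulon had 5 of 18 in both, among them PHM8 (9.49 in yaf9Δ, 7.80 in swr1Δ) and SPL2 (5.18 in yaf9Δ, 4.49 in swr1Δ), and 4 in yaf9Δ only, led by PHO5, the acid phosphatase gene (2.36). Ribonucleotide reductase genes and their regulators had 4 of 11 in both, such as RNR2 (3.69 in yaf9Δ, 3.60 in swr1Δ), and 3 in yaf9Δ only, such as SML1, an inhibitor of the enzyme (2.38). The peak at RNR2 was also the one counted at the tRNA gene EMT5.

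Amino acid synthesis genes had 15 of 49 in both, among them SER1 (6.83 in yaf9Δ, 6.99 in swr1Δ) and LYS20 (6.58 in yaf9Δ, 5.09 in swr1Δ), and 16 in yaf9Δ only, led by ILV2 (2.77). The peak at SER1 was also the one counted at the ribosomal protein gene RPS30B. Translation factors had 9 of 37 in both, led by HYP2, which encodes eIF5A (7.98 in yaf9Δ, 7.22 in swr1Δ), and 13 in yaf9Δ only. Oxidative phosphorylation genes had 9 of 38 in both, led by ATP1 (4.14 in yaf9Δ, 4.09 in swr1Δ), and 10 in yaf9Δ only. The peak at ATP1 was also the one counted at the tRNA gene YNCB0002W. Glycolysis and fermentation genes had 9 of 24 in both, such as PYK2 (3.84 in yaf9Δ, 4.35 in swr1Δ) and PGK1 (3.12 in yaf9Δ, 3.17 in swr1Δ), and 2 in yaf9Δ only.

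Other groups stood near or below the background share for both lists. Among galactose utilisation genes, the regulon of the activator Gal4, a peak lay at 1 of 7 promoters in both lists (GAL80, 2.15 in yaf9Δ, 1.30 in swr1Δ) and at 5 in yaf9Δ only, among them the divergent GAL1 and GAL10 under 1 peak (2.17). At equal length the yaf9Δ-only count was 0, since their yaf9Δ peaks ranked below the limit. Genes of SWR1 subunits had 2 of 14 in both, with VPS71 (5.33 in yaf9Δ, 3.55 in swr1Δ) and BDF1 (1.59 in yaf9Δ, 1.27 in swr1Δ), and 7 in yaf9Δ only. NuA4 subunit genes had 2 of 13 in both, EPL1 (2.84 in yaf9Δ, 1.61 in swr1Δ) and EAF1 (1.96 in yaf9Δ, 1.38 in swr1Δ), and 4 in yaf9Δ only. The yaf9Δ-only counts of both groups include YAF9, the gene deleted in that strain (fold 2.62).

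Ribosome biogenesis genes, whose products assemble the ribosome, had 2 of 39 in both (KRE33, 3.28 in yaf9Δ, 3.77 in swr1Δ, and BRX1, 1.52 in yaf9Δ, 1.30 in swr1Δ) and 9 in yaf9Δ only. Mitochondrial ribosomal protein genes had 10 of 67 in both and 12 in yaf9Δ only. RNA polymerase I and III subunit genes had 2 of 27 in both, 4 in yaf9Δ only and 1 in swr1Δ only, RPA14 (1.47). Hexose transporter genes and their regulators had 5 of 23 in both, such as HXT3 (3.30 in yaf9Δ, 3.61 in swr1Δ), 3 in yaf9Δ only and 1 in swr1Δ only, HXT6 (1.58). Subtelomeric families had 4 of 44 in both and 9 in yaf9Δ only. Ribosome biogenesis genes (5.13%), RNA polymerase I and III subunit genes (7.41%) and subtelomeric families (9.09%) thus stood below the 17.4% of all promoters in both lists. No other group had a share in both lists as high as that of the ribosomal protein genes.

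In most groups the yaf9Δ-only promoter count was smaller at equal length. By construction it could not rise and the swr1Δ-only count could not fall, since only the yaf9Δ list was shortened. The background is then 12.3% of all promoters for both, 5.73% for yaf9Δ only and 5.4% for swr1Δ only. Stress response genes then had 10 promoters in both, 4 in yaf9Δ only and 5 in swr1Δ only. Amino acid synthesis genes had 14 in both, 5 in yaf9Δ only and 1 in swr1Δ only. Translation factor genes and oxidative phosphorylation genes each had 7 in both, 3 in yaf9Δ only and 2 in swr1Δ only. Cell wall and plasma membrane genes had 8 in both, 5 in yaf9Δ only and 2 in swr1Δ only, and chaperone genes had 7, 2 and 1 in the same order. Proteasome genes had 6 in both, 2 in yaf9Δ only and 4 in swr1Δ only, and glycolysis and fermentation genes had 8, 0 and 1.

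The smaller groups had few one-list promoters left at equal length. Cyclin genes had 5 in both, 1 in yaf9Δ only and 1 in swr1Δ only, histone genes 4, 3 and 1, the phosphate regulon 3, 2 and 2, and the ribonucleotide reductase group 4, 1 and 0. SWR1 subunit genes had 1 in both, 2 in yaf9Δ only and 1 in swr1Δ only, and NuA4 subunit genes 2, 1 and 0. The yaf9Δ-only counts of these groups still include YAF9, the deleted gene. Mitochondrial ribosomal protein genes had 9 in both, 3 in yaf9Δ only and 1 in swr1Δ only, ribosome biogenesis genes 1, 4 and 1, and RNA polymerase I and III subunit genes 1, 0 and 2. Hexose transporter genes and their regulators had 3 in both, 1 in yaf9Δ only and 3 in swr1Δ only, and subtelomeric families 2, 0 and 2.

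**Figure D5:**
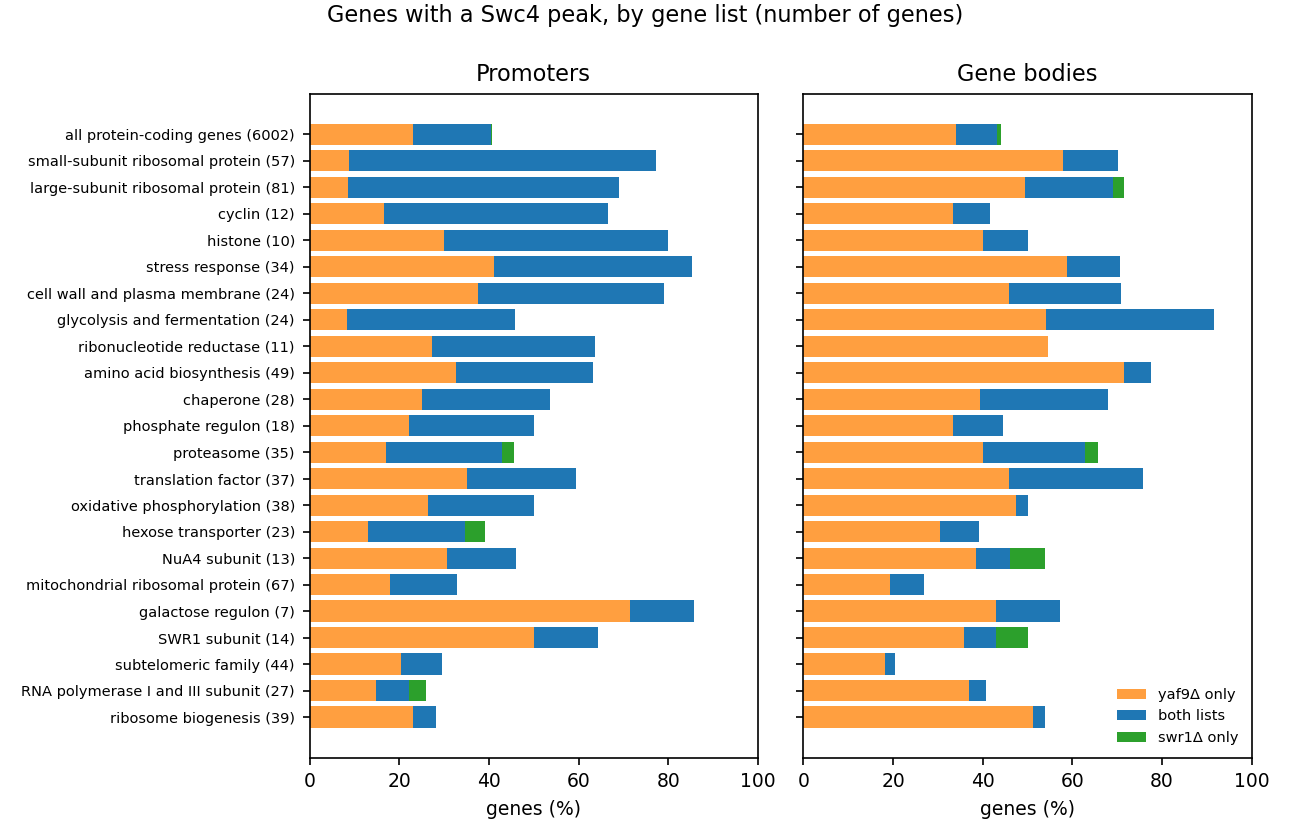
Share of the genes of each list (horizontal axis, %) with a peak in yaf9Δ only, in both lists or in swr1Δ only, at promoters (left) and in gene bodies (right), full lists. All protein-coding genes stand at the top. Both sets of ribosomal protein promoters have more than 60% in both lists, against 17.4% of all promoters, and in gene bodies the yaf9Δ-only part is the longest in each list.

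Over all 6002 promoters, 1043 had a peak in both lists, 1388 in yaf9Δ only and 18 in swr1Δ only. At those in both, the highest peak of each list overlapped the other at 1003 promoters and lay apart at 40. Promoters in both had a wild-type peak in 487 cases (46.7%) and an eaf1Δ peak in 858 (82.3%), while those in yaf9Δ only had a wild-type peak in 242 (17.4%) and an eaf1Δ peak in 940 (67.7%). Of the 3553 promoters with neither, 51 had a wild-type peak and 305 an eaf1Δ peak.

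Gene-body summits were counted over the same groups. The background is 9.15% for both, 34.1% for yaf9Δ only and 0.883% for swr1Δ only. Of 24 glycolysis and fermentation genes 9 had a gene-body summit in both lists and 13 in yaf9Δ only, which left 2 with neither. ENO1 (1.85 in yaf9Δ, 1.37 in swr1Δ) and PDC1 (1.65 in yaf9Δ, 1.30 in swr1Δ) were in both, and PFK2 (2.29) and HXK2 (2.16) in yaf9Δ only. Of 49 amino acid synthesis genes 3 were in both and 35 in yaf9Δ only, such as GCN4 (2.21). Of 37 translation factor genes 11 were in both, such as EFT2 (2.79 in yaf9Δ, 1.76 in swr1Δ), and 17 in yaf9Δ only, such as TIF1, which encodes eIF4A (2.74).

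Other groups stood at or below the background for yaf9Δ only. These were the mitochondrial ribosomal protein genes with 13 of 67 (19.4%), the subtelomeric families with 8 of 44 (18.2%), the hexose transporter group with 7 of 23 (30.4%), the phosphate regulon with 6 of 18 (33.3%) and the cyclin genes with 4 of 12 (33.3%).

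At equal length the background for yaf9Δ only is 7.01%. Translation factor genes had 9 of 37 in both, 8 in yaf9Δ only and 2 in swr1Δ only. Glycolysis and fermentation genes had 6 of 24 in both, 5 in yaf9Δ only and 3 in swr1Δ only. Amino acid synthesis genes had 0 in both, 8 in yaf9Δ only and 3 in swr1Δ only. Oxidative phosphorylation genes had 0 of 38 in both, 7 in yaf9Δ only and 1 in swr1Δ only, and ribosome biogenesis genes 0 of 39 in both, 6 in yaf9Δ only and 1 in swr1Δ only. The yaf9Δ-only shares of these 5 groups, chosen after their counts were seen, ran from 15.4% to 21.6%, against 43.5% of the ribosomal protein genes. Below the background were the mitochondrial ribosomal protein genes with 2 of 67 (2.99%), RNA polymerase I and III subunit genes with 1 of 27 (3.70%), the hexose transporter group with 1 of 23 (4.35%), the phosphate regulon with 1 of 18 (5.56%), and the galactose genes (7) and subtelomeric families (44) with 0.

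Along the gene, the summits of the gene-body class had no common place. The class leaves out summits in the 500 bp upstream of any gene, which removes part of a gene next to the start of a neighbour. Positions expected under this rule were not computed. The median position was 48.6% of the way from start to stop in shared yaf9Δ peaks and 51.0% in yaf9Δ-only peaks, which lay in 2159 different genes. At equal length the yaf9Δ-only summits lay at a median of 60.3% and those of the unshared swr1Δ peaks at 47.1%. The last of 3 equal stretches of the gene held 45.2% of these yaf9Δ summits and 33.8% of these swr1Δ summits.

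The highest yaf9Δ-only peak lay at the shared upstream stretch of ARO10, a decarboxylase of aromatic amino acid breakdown, and SDH6 (chromosome IV, 1233760–1234065, fold 3.69), 8808 bp from any swr1Δ peak. EFT1, which encodes elongation factor 2, followed further down (chromosome XV, 575063–576184, fold 3.19), with a wild-type and an eaf1Δ peak at the same place. RPS28B (chromosome XII, 673119–673379, fold 3.18), FOB1, the rDNA fork barrier gene (chromosome IV, 677439–677744, fold 3.18), and TIM50, of mitochondrial import (chromosome XVI, 430944–431253, fold 3.07), had a counterpart in neither of the other lists. SWI1, a subunit of the SWI/SNF remodeller (3.10), MGA1 (3.09) and OSH7 (3.04) had an eaf1Δ counterpart. Most of these stood in gene bodies, and all had a −log10 q of at least 35.4.

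The 20 swr1Δ-only peaks were few and mostly weak. They lay 236 to 2919 bp from the nearest yaf9Δ peak (median 993 bp), 6 had a fold of at least 2 and 7 a −log10 q of at least 5. Gene bodies held 12 of them, other promoters 4, tRNA genes 3 and a chromosome end 1. The tRNA genes were YNCD0006W, YNCP0017C and YNCK0021W. The highest of the others was CMR3, a putative transcription factor gene (chromosome XVI, 585796–586320, fold 2.49). ZRT1, the high-affinity zinc transporter gene (chromosome VII, 21085–21463, fold 2.31), and AHT1 (chromosome VIII, 289432–289736, fold 2.11) followed. CMR3 and ZRT1 were the 2 of the 20 with a wild-type peak, and 8 of the 20 had an eaf1Δ peak.

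At equal length the highest unshared swr1Δ peaks were mostly at tRNA genes and upstream of genes. They included the tRNA genes YNCN0017W (fold 3.25) and YNCG0017W (3.23), the stretch upstream of ZRT1 (chromosome VII, 20290–20645, fold 3.24), and promoters of ISU1, a scaffold of iron-sulfur cluster assembly (3.08), IRA2, an inhibitor of Ras (2.79), and RPL38 (2.78). HXT5, a hexose transporter gene, had 2.88. These sites did have yaf9Δ peaks, which ranked below the limit. At RPL38 the yaf9Δ peak (781476–781780) had a fold of 2.11 and the swr1Δ peak (781470–781784) 2.78.

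A few shared sites stood far apart in the order of the 1193 pairs. GLY1, a threonine aldolase gene on chromosome V, had a yaf9Δ peak at 67576–70261 with rank 1092 (fold 1.58) and a swr1Δ peak at 69073–69619 with rank 152 (fold 4.14). The yaf9Δ summit lay in the gene and the swr1Δ summit upstream of it, 587 bp away, with a local background of 670 fragments in yaf9Δ and 201 in swr1Δ. ISU1 had rank 1165 in yaf9Δ (fold 1.45) and 281 in swr1Δ (3.08), again with the yaf9Δ summit in the gene and the swr1Δ summit in the promoter, 498 bp apart. PMP2, which encodes a proteolipid of the plasma membrane proton pump, had rank 1151 in yaf9Δ (fold 1.49) and 392 in swr1Δ (2.42). The tRNA gene YNCK0018C had rank 1169 in yaf9Δ (1.43) and 372 in swr1Δ (2.55), and NAG1 rank 1159 in yaf9Δ (1.48) and 427 in swr1Δ (2.21). At all 5 the yaf9Δ peak was the wider and its summit lay in a gene body, 461 to 644 bp from the swr1Δ summit, so the pairs compare different points.

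In the other direction the 5 largest gaps were all in gene bodies. LSP1, of the eisosome at the plasma membrane, had rank 563 in yaf9Δ (fold 2.13) and 1151 in swr1Δ (1.24). PEP4, the vacuolar protease A gene, had rank 571 in yaf9Δ (2.12) and 1153 in swr1Δ (1.24). The yaf9Δ and swr1Δ summits lay 515 bp apart in the LSP1 pair and 259 bp apart in the PEP4 pair. DAL81, a regulator of nitrogen use, had rank 498 in yaf9Δ (2.27) and 1068 in swr1Δ (1.31), with summits 14 bp apart. POR1, the mitochondrial porin gene, had rank 638 in yaf9Δ (2.05) and 1172 in swr1Δ (1.20), and PMU1 rank 395 in yaf9Δ (2.59) and 927 in swr1Δ (1.41), with summits 522 bp apart at POR1 and 331 bp apart at PMU1. Except at DAL81, then, the ranks and folds of these pairs belong to different points in a wide peak. All 5 had an eaf1Δ peak and no wild-type peak.

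The deleted genes were checked in each list. No yaf9Δ peak lay over YAF9, though 1 ended 193 bp upstream of it (chromosome XIV, 419589–419905, fold 2.62) and another began 1 bp past its end (420779–421684, fold 3.58). The swr1Δ and wild-type lists had no peak within 1 kb of YAF9, and the eaf1Δ list had 1 upstream (419593–419861, fold 2.34) and 1 downstream (421113–421700, fold 1.59). None of the 4 lists had a peak over YAF9, so its absence in yaf9Δ does not check the label. No swr1Δ peak lay over SWR1, and 1 began 1 bp past its end (chromosome IV, 1140477–1140809, fold 2.02), where the yaf9Δ list had a peak that reached into the gene (1140143–1140793, fold 2.09) besides another inside it (1137284–1137504, fold 1.62). Over SWR1 the wild-type list had 1 peak (1135665–1136338, fold 3.24) and the eaf1Δ list 1 (1135708–1136120, fold 2.19). Whether the missing sequence set these edges was not tested, and the peak past YAF9 is the yaf9Δ-only peak of second highest fold. SWC4, the tagged gene, had 2 yaf9Δ peaks over it (folds 1.44 and 2.22) and 0 swr1Δ peaks within 1 kb.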

How the data were processed

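The ChIP-seq series holds 10 samples in 5 groups of 2 repeats, and the pooled peak lists of the 4 groups with Myc-tagged Swc4 were used. Per the submitters' processing notes reads passed through fastp 0.21.0, BWA 0.7.15-r1140, SAMtools 1.4 and MACS2. The control, the MACS2 settings, the genome build and the read totals are not known from the sources used here. Per the labels, each deposited list combines both repeats of its group. Each deposited peak holds the fold enrichment at its summit, a ratio of pileup to local background made by the authors' peak caller. The −log10 p and −log10 q values were likewise made by the authors' peak caller. The deposited score is the −log10 q times 10 with its decimals dropped, and was not used.

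Mitochondrial peaks were left out. Overlap meant at least 1 bp, and each pair joined the peaks of largest overlap. Gene positions came from a RefSeq table of assembly R64, with which all peaks were read on the assumption of the same build. Local background was solved from fold and p where −log10 p was at most 250, and pileups came out whole within 0.05 for 99.8% of the solved peaks in yaf9Δ and 98.3% in swr1Δ. Gene lists held 692 entries in 22 lists, with 1 entry not matched. The text names the pairs of highest mean fold rank, the highest peaks found in only 1 of the 2 lists, the largest rank gaps, and up to 4 members of each list and category by fold. The snRNA and snoRNA counts, the single tRNA, snRNA and snoRNA genes named, the gene-body counts, the bins and the list lengths below 1258 were chosen after their values were seen. The compared lists, the gene lists and the members were chosen with earlier results of these data known. Intervals are exact 95% and cover counting error only. Python 3.11.15, numpy 2.4.6, pandas 2.3.3, SciPy 1.17.1 and matplotlib 3.10.9 were used, and the overlap, pairing and background steps were tested on simulated data.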

Additional observations from a re-analysis of the deposited data

Results flagged for a closer look

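The mitochondrial chromosome lay outside the comparison and held peaks in both lists. There were 68 in yaf9Δ (1.48% of 4590 peaks, folds 1.29 to 2.80) and 4 in swr1Δ (0.317% of 1262, folds 1.24 to 1.54). The eaf1Δ list held 37 and the wild-type list 0.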

How the results depend on the processing

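Of 171 values recomputed for 20 results under 13 settings, 97 were labelled unmoved and 74 moved. Unmoved values stayed within their interval, within 0.05 of a rank correlation or within 1.5 times their count. The count of ribosomal protein promoters in swr1Δ only was 0 in the main setting. It was labelled moved wherever it was recomputed, also where it stayed 0. At the length of the wild-type list the balance of promoters found in 1 list turned, with 152 in yaf9Δ only and 189 in swr1Δ only, against 1388 and 18 in the full lists. For tRNA genes the counts were 4 in yaf9Δ only and 25 in swr1Δ only at that length, and 11 and 13 at equal length, against 16 and 5 in the full lists. The share of yaf9Δ peaks with a swr1Δ peak was 20.9% with −log10 q of at least 5, 28.0% with a fold of at least 2, 51.8% at equal length, 67.8% at the length of the wild-type list and 21.6% with summits at most 100 bp apart. The share of swr1Δ peaks with a yaf9Δ peak was 93.1% with a fold of at least 2, 54.1% at equal length, 68.5% at the wild-type length and 77.6% by summits. The rank correlation was 0.925 at equal length, 0.902 at the wild-type length and 0.905 by summits. Gene bodies held 78.8% of the yaf9Δ-only peaks with a fold of at least 2, 81.8% at equal length, 81.1% at the wild-type length, 92.2% with promoters of 250 bp, 58.0% with promoters of 1000 bp and 82.2% with ends of 20 kb. By construction the promoter length moves summits between promoters and gene bodies, so the gene-body share depends on it. Ribosomal protein promoters in both lists numbered 77 to 91 and tRNA genes in both 113 to 140. No paired analysis was possible because each list pools both repeats, and for the same reason no repeat could be left out. The search of promoter motifs was not run, since no sequences were used here. Depth per repeat is not known, so a missing swr1Δ peak does not show that Swc4 was absent.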
